A study of Rattus norvegicus with 18 samples.

Results

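Plexins and neuropilins are the cell surface receptors for semaphorins, and their mRNAs were examined in rat cervical dorsal root ganglia (DRG) after a spinal tract injury. The 10 members were chosen by gene symbol, namely *Plxna1*, *Plxna2*, *Plxna3*, *Plxnb1*, *Plxnb2*, *Plxnb3*, *Plxnc1*, *Plxnd1*, *Nrp1* and *Nrp2*. Of these, 6 had a row among the 15075 RefSeq identifiers in the count table of all rats: *Plxna2* (NM_001105988), *Plxna3* (NM_001107581), *Plxnb2* (NM_001108106), *Plxnb3* (NM_001135878), *Nrp1* (NM_145098) and *Nrp2* (NM_030869). No row was matched to *Plxna1*, *Plxnb1*, *Plxnc1* or *Plxnd1*, and these 4 receptors were not analysed here. All 6 members with a row passed the filter on low counts in each comparison.

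Poly(A) RNA was sequenced from C6-C8 DRG of 18 lister hooded rats, with the ganglia of the treated side pooled into 1 library per rat. The 6 naïve rats (41, 42, 43, 44, 45 and 49) had no operation and no vector. The 6 bPYX+GFP rats (5, 15, 18, 21, 52 and 57) had both corticospinal tracts cut in the medullary pyramids (bilateral pyramidotomy, bPYX). They were then given AAV1-CMV-EGFP, a viral vector for green fluorescent protein, in the forelimb muscles of 1 side, and are called GFP rats. The 6 bPYX+NT3 rats (2, 11, 17, 23, 39 and 40) had the same injury and an AAV1 vector with human neurotrophin-3, a growth factor for proprioceptive afferents, behind the same CMV promoter, and are called NT3 rats. DRG were taken 10 weeks after injury in both injured groups. There was no injured group without a vector and no vector group without injury, so that injury and AAV1 cannot be told apart in a comparison with naïve rats. The CMV promoter is active in many cell types, and the injury itself spares the sensory axons of the DRG.

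Semaphorins are secreted or membrane-bound guidance cues that steer axons, and plexins are the receptors that carry their signal across the membrane. Secreted class 3 semaphorins bind a neuropilin, which forms a complex with a class A plexin, whereas class 4 and class 5 semaphorins bind class B plexins directly. The plexin's cytoplasmic part acts on small GTPases, and the growth cone turns or collapses when the actin beneath it is taken apart. Neuropilins also bind vascular endothelial growth factors (VEGFs), so that they act in blood vessels as well as in axons. In the DRG, sensory neurons, satellite glia, Schwann cells and vessels can all express members of the family.

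Read-pairs on genes numbered 10057787 to 16002410 per rat. The share of counted read-pairs that fell on no annotated feature (the no-feature share) ranged from 30.8% to 34.6%, and was lowest in rat 11 (NT3, 30.8%) and rat 57 (GFP, 31.7%). These libraries stood apart in several members, so a number of results are also given without them. The no-feature share was not distinguishable between groups (p = 0.861 for GFP and naïve, p = 0.288 for NT3 and naïve, p = 0.390 for the injured groups, two-sided exact permutation tests). Of the 16 neuronal markers listed, 15 had a row, and their summed level was 12088 to 15361 CPM (counts scaled to a fixed library total) over the 18 rats. In whole tissue, fewer cells of a type and less RNA per cell cannot be told apart. The replicates were separate rats.

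The promoters of 3 members are shown because *Plxna3* and *Plxnb2* varied together between rats, whereas *Plxnb3* followed them less closely, as described below. Each is the stretch of 250 bases before the annotated start in RefSeq (GRCr8), read 5′ to 3′ on the strand of the gene. Capitals mark GC boxes (GGGCGG on either strand) and matches to the EGR motif GCGNGGGCG on either strand, which can overlap a GC box.
Plxna3 (chrX:157266857-157267106, plus strand): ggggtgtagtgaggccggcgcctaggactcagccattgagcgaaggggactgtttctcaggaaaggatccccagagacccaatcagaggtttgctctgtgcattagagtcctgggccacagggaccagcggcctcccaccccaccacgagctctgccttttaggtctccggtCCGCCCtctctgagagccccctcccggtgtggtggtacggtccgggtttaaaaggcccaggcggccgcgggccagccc
Plxnb2 (chr7:122137949-122138198, minus strand): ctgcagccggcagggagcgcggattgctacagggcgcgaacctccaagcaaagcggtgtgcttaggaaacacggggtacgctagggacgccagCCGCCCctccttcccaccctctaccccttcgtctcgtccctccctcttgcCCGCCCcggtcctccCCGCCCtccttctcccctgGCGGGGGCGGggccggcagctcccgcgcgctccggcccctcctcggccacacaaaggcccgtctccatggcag
Plxnb3 (chrX:156646624-156646873, plus strand): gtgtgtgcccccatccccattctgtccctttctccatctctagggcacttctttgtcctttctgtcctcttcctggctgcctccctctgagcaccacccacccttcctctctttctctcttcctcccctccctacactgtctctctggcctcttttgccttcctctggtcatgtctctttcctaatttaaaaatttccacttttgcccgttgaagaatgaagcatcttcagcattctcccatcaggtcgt

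The *Plxnb2* window held 4 GC boxes, 1 EGR match and 24 CpG dinucleotides. The *Plxna3* window held 1 GC box, no EGR match and 13 CpG dinucleotides. The *Plxnb3* window held neither motif and 2 CpG dinucleotides. Over all 33465 promoter windows of the same length, 30.5% held a GC box, 4.29% held the EGR motif and the median was 5 CpG dinucleotides. Among the other members, the *Plxna2* window held 2 GC boxes, 2 EGR matches and 17 CpG dinucleotides, and those of *Nrp1* and *Nrp2* held neither motif, with 14 and 13 CpG dinucleotides. These matches describe the letters of the windows only.

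After injury and the GFP vector, 1 of the 6 members, *Plxnb3*, differed from naïve rats at an unadjusted p under 0.05 and was lower (edgeR's quasi-likelihood test). Over all genes tested in that comparison 3.25% were called, 2.52% lower and 0.733% higher. Of the 6 members 0 were called in NT3 rats against naïve rats, where 6.01% of all genes were (3.09% higher, 2.92% lower). Likewise 0 were called in NT3 against GFP rats, where 1.73% of all genes were (1.08% higher, 0.654% lower). These shares of all genes moved with single rats. When each rat was left out they ran from 2.38% to 5.17% for GFP against naïve (highest without rat 57), from 3.16% (without rat 11) to 12.2% (without rat 23) for NT3 against naïve and from 0.918% (without rat 11) to 19.8% (without rat 57) for NT3 against GFP. DESeq2 called 2 members in GFP against naïve rats, 0 in NT3 against naïve rats and 1 in NT3 against GFP rats at the same threshold. No member had an adjusted p under 0.05 with edgeR's quasi-likelihood test, its likelihood ratio test or DESeq2. Over all genes, the quasi-likelihood test gave 0 such genes in each comparison. The likelihood ratio test gave 13 and DESeq2 16 between GFP and naïve rats, and both gave 0 in the other comparisons. The median log2 fold change of the members was 0.064, 0.036 and 0.057 in these comparisons, beside 0.012, 0.00051 and 0.0049 over all genes. For every member the range of each group overlapped the ranges of the other groups.

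**Figure D1:**
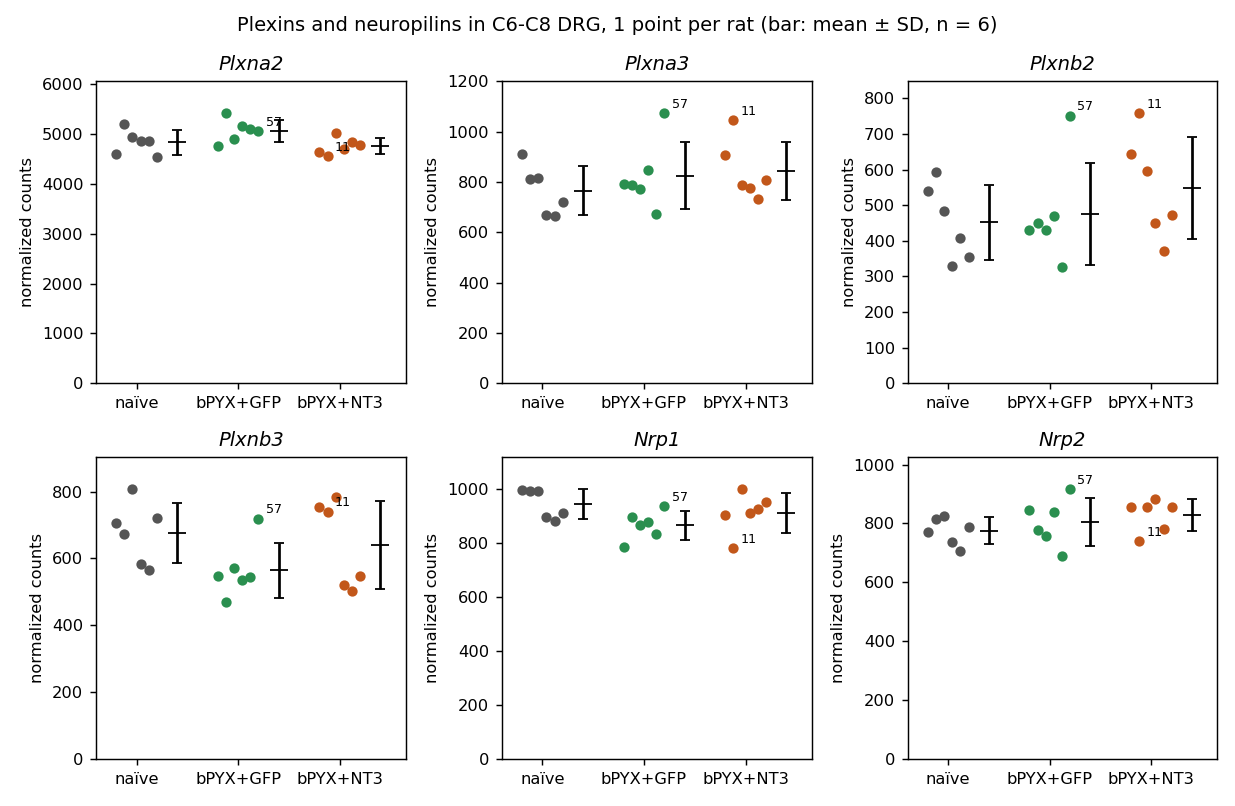
Normalized counts (vertical axes, from 0) of the 6 measured members in each rat, with naïve rats in grey, bPYX+GFP rats in green and bPYX+NT3 rats in orange. Black bars are mean ± SD (n = 6 rats). All groups overlap for every member, and rats 57 and 11 are the 2 highest for *Plxna3* and *Plxnb2*.

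*Plxna2*, a class A plexin that can pair with neuropilins and also binds class 6 semaphorins, varied least between rats. Normalized counts are counts scaled to the mean library by trimmed mean of M-values (TMM). They ran from 4531 to 5199 in naïve rats (median 4862), from 4755 to 5414 in GFP rats (median 5078) and from 4560 to 5017 in NT3 rats (median 4742). The means were 4832 ± 243, 5063 ± 227 and 4760 ± 161 (SD, n = 6 each). The groups overlapped, although each NT3 rat lay below the GFP median.

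*Plxna2* had a log2 fold change of -0.090 (SE 0.046) in NT3 against GFP rats, with an unadjusted edgeR p of 0.0743 and p = 0.0238 in a two-sided exact permutation test of log2 CPM (edgeR adjusted p = 0.851). That is 1 of 18 exact tests run on the members, and the smallest p that 6 rats against 6 allow is 0.00216. When each rat was left out, the exact p stayed under 0.05 in 11 of 12 cases and was 0.0519 without rat 11. The difference was called in edgeR without rat 5 (-0.11) and in a fit that took the no-feature share as covariate, and also by DESeq2. Against naïve rats the log2 fold change was 0.069 (SE 0.049, exact p = 0.119) with GFP and -0.023 (SE 0.049, exact p = 0.569) with NT3. The latter was 0.0074 with library size as the only scaling. Without rat 42 the exact p of GFP against naïve rats was 0.0411.

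*Plxna3*, the class A plexin that serves with neuropilins as a receptor for class 3 semaphorins, differed more between rats than between groups. Its normalized counts ran from 663 to 909 in naïve rats (median 766), from 674 to 1072 in GFP rats (median 790) and from 732 to 1046 in NT3 rats (median 798). The highest values in the injured groups were those of rats 57 and 11, and the other injured rats lay among the naïve rats. The means were 765 ± 97.2, 824 ± 134 and 842 ± 115 (SD, n = 6 each).

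Against naïve rats *Plxna3* gave a log2 fold change of 0.11 (SE 0.111, exact permutation p = 0.413) with GFP and 0.14 (SE 0.0998, exact permutation p = 0.223) with NT3. The GFP value was 0.016 without rat 57, and the NT3 value was 0.067 without rat 11. NT3 against GFP gave 0.031, with a 95% interval from -0.22 to 0.28 (exact permutation p = 0.771). Leaving out rat 11 or rat 52 turned this last value to -0.039 or -0.022, both within that interval.

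*Plxnb2*, a class B plexin that binds class 4 semaphorins, spread most of all members. Its normalized counts ran from 329 to 594 in naïve rats (median 447), from 326 to 751 in GFP rats (median 440) and from 370 to 758 in NT3 rats (median 534). Rat 57 had 751 where the other GFP rats reached at most 468, and rat 11 was the highest of the NT3 rats. The means were 452 ± 105, 476 ± 144 and 548 ± 143 (SD, n = 6 each).

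None of these differences in *Plxnb2* passed the threshold with 6 rats a group and no covariate or block. Against naïve rats the log2 fold change was 0.079 (SE 0.191, exact permutation p = 0.788) with GFP and 0.27 (SE 0.180, exact permutation p = 0.219) with NT3. It was 0.20 in NT3 against GFP rats (SE 0.205, 95% interval -0.24 to 0.64, exact permutation p = 0.368). Without rat 57 the GFP value against naïve rats turned to -0.11. NT3 against GFP was then 0.38 and called in edgeR (adjusted p = 0.252), in a fit that called 19.8% of all genes. Without rats 57 and 11 no difference in *Plxnb2* was called. With the replicate number as a block, NT3 against naïve was called at 0.27 (edgeR adjusted p = 0.108), in a fit that called 25.3% of all genes. The labels do not pair the rats by this number.

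*Plxnb3*, a class B plexin and receptor for Sema5A, was lower in GFP than in naïve rats. Its normalized counts ran from 565 to 807 in naïve rats (median 690), from 468 to 719 in GFP rats (median 545) and from 501 to 783 in NT3 rats (median 644). Except for rat 57 at 719, the GFP rats lay at 572 or below, and 5 of 6 lay under the naïve median. The NT3 rats comprised 3 rats at 740 to 783 and 3 rats at 501 to 547, on both sides of the naïve median. The means were 676 ± 90.8, 564 ± 83.2 and 640 ± 131 (SD, n = 6 each).

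In GFP against naïve rats, *Plxnb3* had a log2 fold change of -0.26 (SE 0.110, 95% interval -0.49 to -0.02). The unadjusted p was 0.0342 in edgeR and 0.0455 in the exact permutation test, and the edgeR adjusted p was 1.000. The call was lost in edgeR when rat 41, 43, 49, 5, 15, 21 or 52 was left out, with log2 fold changes of -0.25 to -0.20, and the exact p stayed under 0.05 in 3 of the 12 omissions. It was also lost with library size as the only scaling and in 1 fit over the 3 groups, whose unadjusted edgeR p-values were 0.0528 and 0.0577. Without rat 57 the log2 fold change was -0.35 (edgeR adjusted p = 0.424). With NT3 it was -0.079 against naïve rats (SE 0.130, exact permutation p = 0.522) and 0.18 against GFP rats (SE 0.138, exact permutation p = 0.299).

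*Nrp1*, the neuropilin through which Sema3A acts and a co-receptor for VEGFs, had its lowest mean in GFP rats. Its normalized counts ran from 881 to 996 in naïve rats (median 949), from 783 to 936 in GFP rats (median 871) and from 779 to 998 in NT3 rats (median 916). All 6 GFP rats lay below the naïve median, but the ranges overlapped. The means were 944 ± 54.6, 864 ± 52.8 and 910 ± 73.3 (SD, n = 6 each).

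In GFP against naïve rats, *Nrp1* had a log2 fold change of -0.12 (SE 0.059, 95% interval -0.25 to 0.0019), just short of the threshold in edgeR. The unadjusted p was 0.0531 in edgeR, 0.0441 in DESeq2 and 0.0346 in the exact permutation test, and the edgeR adjusted p was 1.000. Leaving out rat 44, 45 or 57 gave a call in edgeR at -0.14, -0.15 or -0.15. Leaving out rat 5, 52, 41, 42 or 43 brought the exact p to between 0.0628 and 0.0693. The log2 fold change was -0.054 (SE 0.066, exact permutation p = 0.418) for NT3 against naïve rats and 0.073 (SE 0.066, exact permutation p = 0.253) for NT3 against GFP rats. Without rats 57 and 11 the latter was 0.14 and called in edgeR (adjusted p = 0.388), in a fit that called 12.6% of all genes. Without rat 11 its exact permutation p was 0.0260.

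*Nrp2*, the neuropilin of Sema3F and of VEGF-C, passed the threshold in no comparison. Its normalized counts ran from 708 to 827 in naïve rats (median 780), from 688 to 917 in GFP rats (median 809) and from 740 to 884 in NT3 rats (median 856). The NT3 rats lay above the naïve median in 5 of 6 cases, rat 11 being the exception. The means were 775 ± 45.8, 805 ± 80.2 and 829 ± 55.4 (SD, n = 6 each).

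Log2 fold changes of *Nrp2* against naïve rats were 0.058 (SE 0.074, exact permutation p = 0.474) with GFP and 0.096 (SE 0.063, exact permutation p = 0.110) with NT3. NT3 against GFP gave 0.041 (SE 0.076, exact permutation p = 0.524). Without rat 11 the NT3 value against naïve rats was 0.13 and called in edgeR (adjusted p = 0.991). Without rat 52 that of NT3 against GFP rats was -0.0020.

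**Figure D2:**
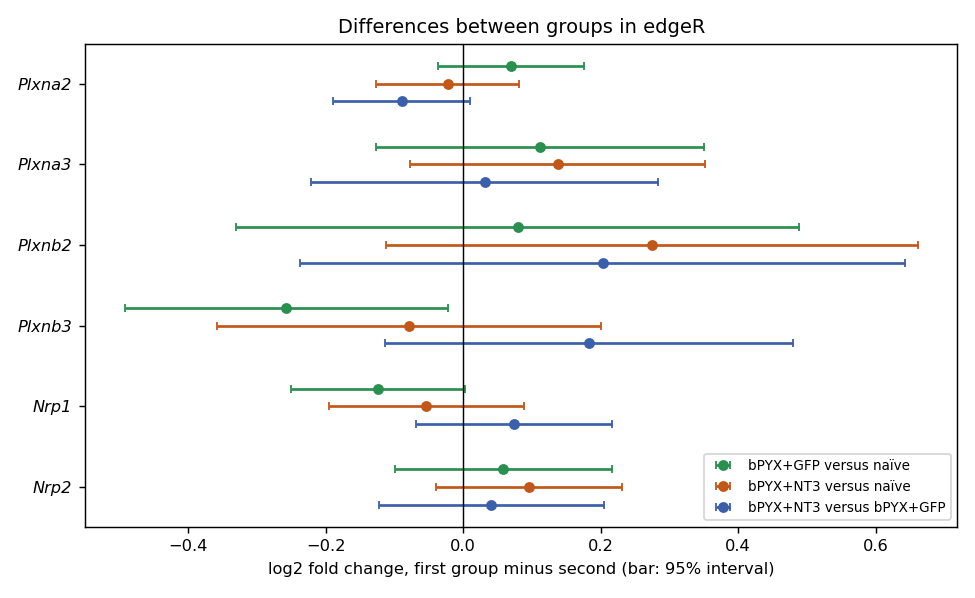
Log2 fold changes (horizontal axis) of the 6 members in the 3 comparisons from edgeR, with 95% intervals as bars and no change as the vertical line. Only the interval of *Plxnb3* between bPYX+GFP and naïve rats (-0.49 to -0.02) leaves out 0, and those of *Plxnb2* are the widest.

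The members differed in how far rats of the same group spread, beyond what counting allows. The within-group coefficient of variation (CV) was 4.37% for *Plxna2*, 6.72% for *Nrp1*, 7.75% for *Nrp2*, 14.4% for *Plxna3*, 16.6% for *Plxnb3* and 26.8% for *Plxnb2*. Counting error alone would give 1.43% for *Plxna2* and from 3.32% to 4.44% for the others, whose raw counts lay between 254 and 1335. Across all rats, the highest normalized count was 2.32 times the lowest for *Plxnb2* and 1.20 times the lowest for *Plxna2*. Transcript lengths were not used here, so levels are not compared between genes.

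Much of this spread ran with the no-feature share in the class A plexin *Plxna3* and the class B plexin *Plxnb2*. Over the 18 rats, log2 CPM of *Plxna3* fell with this share with Pearson's r = -0.86 (permutation p = 2e-05, adjusted over the 6 members 6e-05) and Spearman's rho = -0.79 (permutation p = 2e-04, adjusted 6e-04). For *Plxnb2* r was -0.85 (permutation p = 1e-05, the smallest that 100000 resamples can give, adjusted 6e-05) and rho was -0.84 (permutation p = 4e-05, adjusted 0.00024). Without rats 11 and 57, the farthest from the median share, r was -0.69 and -0.74. Within the naïve, GFP and NT3 groups r was -0.87, -0.91 and -0.85 for *Plxna3* and -0.86, -0.92 and -0.75 for *Plxnb2*. Such a relation was common, since 18.4% of 11821 genes had an r below -0.8.

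The other members followed this share less or not at all. For *Plxnb3* r was -0.50 (permutation p = 0.0319, adjusted 0.0637) and rho was -0.42 (permutation p = 0.0867, adjusted 0.130). For *Plxna2*, *Nrp1* and *Nrp2* r was 0.11, -0.03 and -0.23, with adjusted permutation p-values of 0.794, 0.919 and 0.554, and rho was -0.02, -0.44 and -0.32, with adjusted permutation p-values of 0.948, 0.130 and 0.230. Without rats 11 and 57, r was -0.64 for *Nrp1*, -0.40 for *Plxnb3*, -0.38 for *Nrp2* and -0.08 for *Plxna2*. In *Nrp1* and *Nrp2*, r was -0.88 and -0.42 within naïve rats and -0.62 and -0.77 within GFP rats. Within NT3 rats it was 0.72 and 0.78 (6 rats a group). Rat 11, with the lowest share, was also the lowest NT3 rat for both genes. The values within NT3 rats were not recalculated without it. The part of the no-feature share in the group differences was not tested, beyond a fit with it as a covariate. In that fit *Plxnb3* had a log2 fold change of -0.28 in GFP against naïve rats (edgeR adjusted p = 0.379) and *Nrp1* was called as well. The fit called 7.31% of all genes in that comparison.

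**Figure D3:**
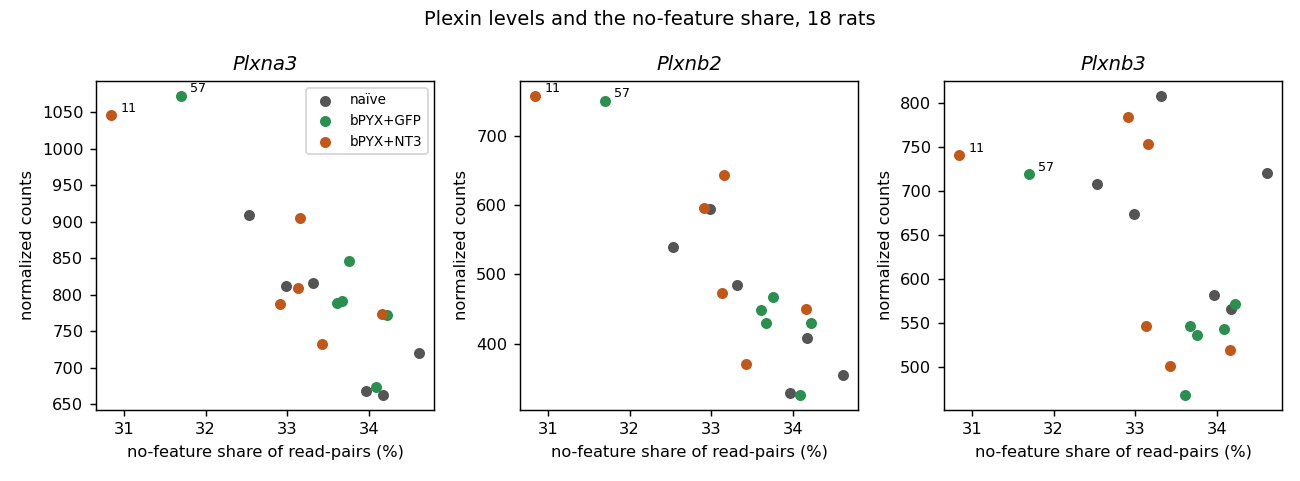
Normalized counts of *Plxna3*, *Plxnb2* and *Plxnb3* (vertical axes, not from 0) against the percentage of counted read-pairs on no annotated feature (horizontal axes), 1 point per rat, coloured by group. *Plxna3* and *Plxnb2* fall with the share in all 3 groups (r = -0.86 and -0.85 on log2 CPM), with rats 11 and 57 at the upper left, and *Plxnb3* scatters more (r = -0.50).

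*Plxna3* and *Plxnb2* also varied together from rat to rat. Their r over the 18 rats was 0.90, 0.91 once group means were removed and 0.82 without rats 57 and 11, given as a description since both share each library. Between *Plxnb3* and *Plxnb2* r was 0.60, 0.71 and 0.52 in the same order. Between *Plxnb3* and *Plxna3* it was 0.49, 0.67 and 0.36. *Nrp2* had an r of 0.51 with both *Plxna3* and *Plxnb2*, and 0.67 and 0.64 without rats 57 and 11. The genes most like *Plxna3* were *Ddx23*, *Aup1* and *Dennd6b* (r = 0.95 for each), and 422 of 11820 genes exceeded an r of 0.9 with it. Those most like *Plxnb2* were *Tln1*, NM_001105791 (an identifier without a matched symbol) and *Ctsa* (r = 0.97 for each), with 534 genes above an r of 0.9.

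*Plxnb3* had few such companions, with 7 genes above an r of 0.9. The closest were *Col4a1*, a basement membrane collagen, with r = 0.93, *Cnp*, an enzyme of myelin-forming cells, with r = 0.93, and *Cldn19*, a tight junction protein of myelin, with r = 0.92. For the neuropilins and *Plxna2* the likeness was looser. The closest to *Nrp1* was *Tgfbr3* (r = 0.77), followed by NM_001106861 and *Otop1* (both 0.74). The closest to *Nrp2* were *Igf1r* (0.83), *Tob2* (0.82) and *Arhgef12* (0.82), and to *Plxna2* they were *Rgs1* (0.76), *Cenpu* (0.73) and *Lifr* (0.71). All are Pearson correlations of log2 CPM over 18 rats.

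The level of *Plxnb3* also moved with Schwann cell markers. Over 7 markers of Schwann cells, the glia that myelinate peripheral axons, 3 were lower in GFP than in naïve rats at an unadjusted p under 0.05 (*Pmp22*, *Egr2* and *Pllp*) and none was higher. Only *Pmp22* was lower in NT3 than in naïve rats, and no marker of the list was called between the injured groups. The list's median log2 fold change was -0.30, -0.11 and 0.21 in these comparisons. The summed markers ran from 2350 to 3631 CPM in naïve rats, from 2008 to 3000 in GFP rats and from 2359 to 2912 in NT3 rats, and no marker was at 0 in every rat of a group.

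Over the 18 rats, log2 CPM of *Plxnb3* rose with the log2 of this sum with r = 0.79 (permutation p = 0.00011, adjusted over the 6 members 0.00066) and rho = 0.79 (permutation p = 0.00022, adjusted 0.00132). It was 0.77 without rats 49 and 15 and 0.82, 0.89 and 0.84 within the naïve, GFP and NT3 groups. For the other 5 members the size of r over all rats was at most 0.48 (*Plxna2*, -0.48), and the smallest adjusted permutation p was 0.125. Within NT3 rats, however, r was 0.86 for *Plxnb2* and 0.77 for *Plxna3*, beside 0.38 for both within GFP rats and -0.03 and 0.45 within naïve rats. Whether the relation differs between members was not tested. The part of Schwann cell content in the difference of *Plxnb3* between groups was not tested. Among the other cell types, 3 of 5 fibroblast markers were lower in GFP (*Col1a1*, *Col3a1* and *Lum*) and 3 in NT3 rats (*Col1a1*, *Col3a1* and *Dcn*) than in naïve rats. Both adipocyte markers tested were called lower in edgeR in NT3 than in GFP rats (*Adipoq* -2.11 and *Fabp4* -2.05 on the log2 scale). Their exact permutation p-values were 0.130 and 0.141, with GFP means of 105 ± 100 and 188 ± 275 normalized counts (SD, n = 6 each). *Adipoq* was also called lower than in naïve rats (exact permutation p = 0.214). *Tie1*, an endothelial receptor, was higher in GFP than in naïve rats (0.30) and was the only 1 of 7 endothelial markers called. In NT3 against GFP rats, only *Kcnj10* of 4 satellite glia markers was called, and was higher (0.42, exact permutation p = 0.0260). Only *Acta2* of 5 mural cell markers was called there, and was higher (0.56, exact permutation p = 0.108). The medians of these lists were 0.058 and 0.21. Of 14 neuronal and 7 macrophage markers tested, 0 were called in each comparison by edgeR at an unadjusted p under 0.05.

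**Figure D4:**
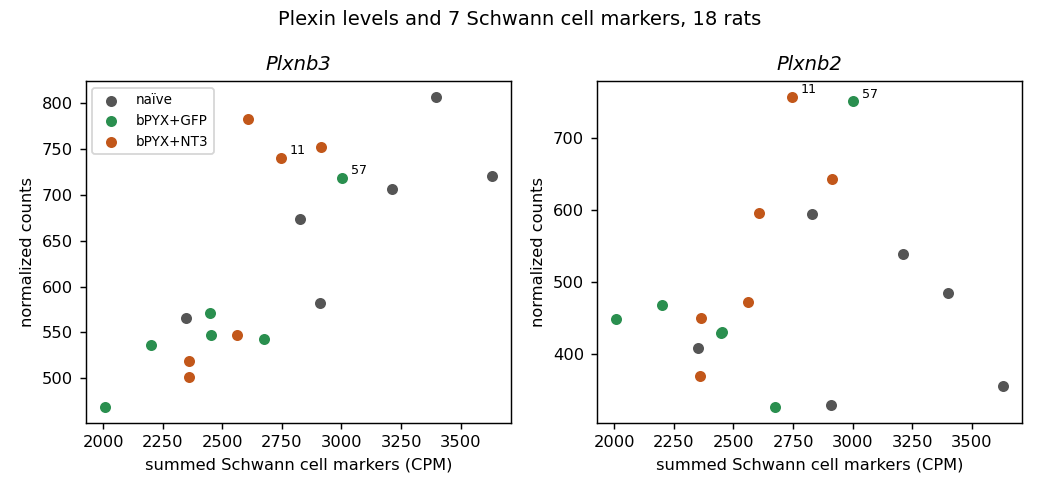
Normalized counts of *Plxnb3* and *Plxnb2* (vertical axes, not from 0) against the sum of 7 Schwann cell markers in CPM (horizontal axes), 1 point per rat, coloured by group. *Plxnb3* is higher in rats with more of these markers (r = 0.79 on log2 values), while for *Plxnb2* r is 0.15 over all rats and 0.86 within NT3 rats.

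The ligands, co-receptors and effectors of these receptors comprised 79 listed genes, of which 70 had a row, with 71 rows tested. At an unadjusted p under 0.05, 3 were higher and 5 lower with GFP than in naïve rats. With NT3, 6 were higher and 3 lower than in naïve rats, and 1 was higher than with GFP. The respective shares of all genes called were 3.25%, 6.01% and 1.73%. None of the listed genes had an adjusted p under 0.05 with edgeR's quasi-likelihood or likelihood ratio test or with DESeq2. Without rats 57 and 11 the count between the injured groups was 19 of 70 rows (27.1%) in a fit that called 12.6% of all genes. Without rat 57 alone it was 24 of 71 rows (33.8%) beside 19.8% of all genes. The comparisons with naïve rats share the same 6 naïve rats.

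Among 17 semaphorins tested, *Sema5a*, the ligand of *Plxnb3*, was lower in both injured groups. Its normalized counts ran from 5285 to 8357 in naïve rats (median 6392), from 3830 to 6663 in GFP rats (median 5064) and from 3218 to 5813 in NT3 rats (median 5352). Every NT3 rat and 5 of 6 GFP rats lay below the naïve median, the lowest being rats 11 and 57. Against naïve rats its log2 fold change was -0.34 with GFP (SE 0.128, exact permutation p = 0.0346) and -0.37 with NT3 (SE 0.138, exact permutation p = 0.0152). Without rats 57 and 11 it was -0.27 in both and still called.

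*Sema4g*, a class 4 semaphorin, was lower with GFP than in naïve rats (log2 fold change -0.34, SE 0.150, exact permutation p = 0.0433), with means of 176 ± 37.6 and 224 ± 40.2 normalized counts. That value was -0.48 and still called without rats 57 and 11, where *Sema4g* was also called in NT3 against GFP rats at 0.41 (edgeR adjusted p = 0.388). *Sema4d*, the ligand of the unmeasured *Plxnb1*, was higher with NT3 than in naïve rats (0.19, SE 0.056, exact permutation p = 0.00216), with means of 651 ± 42.6 and 572 ± 14.9. All 6 NT3 rats lay above its naïve median, and without rats 57 and 11 the log2 fold change was 0.16 and still called. *Sema7a*, the membrane-anchored ligand of *Plxnc1*, was also higher with NT3 (0.30, SE 0.103, exact permutation p = 0.0390), with means of 1570 ± 265 and 1273 ± 116 (SD, n = 6 each). It was at 0.23 and still called without these rats, and was then also called in NT3 against GFP rats at 0.26 (edgeR adjusted p = 0.388).

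Among 17 rows of other ligands and co-receptors, *Flt4*, the VEGF-C receptor that works with *Nrp2*, was higher in both injured groups. Its normalized counts were low, at 5.53 to 13.9 in naïve rats, 15.2 to 27.7 in GFP rats and 15.7 to 36.8 in NT3 rats, and the injured groups did not overlap the naïve group. On the log2 scale the difference was 0.85 with GFP (SE 0.259) and 1.14 with NT3 (SE 0.290), each with the smallest possible exact permutation p of 0.00216. Without rats 57 and 11 the differences were 0.67 and 0.93, both called. At these counts counting error is large. Against naïve rats, the endothelial marker *Tie1* had a log2 fold change of 0.30 in GFP (called) and 0.29 in NT3 rats (not called). It was the only 1 of 7 endothelial markers called, and the list's medians were 0.16 and 0.14. *Emcn*, also on the list, went the other way (-0.14 and -0.22, not called). The part of endothelial cells in the *Flt4* values was not tested.

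Ligands of *Flt4* or *Flt1* moved in both directions with GFP against naïve rats. *Vegfc*, the ligand of *Flt4* and *Nrp2*, was higher (log2 fold change 0.41, SE 0.162, exact permutation p = 0.0303), with means of 69.2 ± 11.6 and 52.1 ± 11.0 normalized counts. *Pgf*, the placental growth factor, was higher (0.47, SE 0.178, exact permutation p = 0.0281), with means of 77.8 ± 13.9 and 56.4 ± 14.7. Without rats 57 and 11 *Pgf* was at 0.38 and still called. *Vegfb*, a ligand of *Flt1*, was lower (-0.32, SE 0.099, exact permutation p = 0.0260), with means of 508 ± 31.0 and 634 ± 105. *Flt1*, the receptor for VEGF-B and placental growth factor, was higher with NT3 than in naïve rats (0.28, SE 0.119, exact permutation p = 0.0476).

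*Plxdc1*, which encodes a transmembrane protein with a domain shared with plexins, was the only listed gene called between the injured groups. Its normalized counts averaged 48.2 ± 13.6 in naïve, 34.5 ± 8.65 in GFP and 51.1 ± 8.44 in NT3 rats (SD, n = 6 each). GFP against naïve rats gave a log2 fold change of -0.49 (SE 0.214, exact permutation p = 0.0671), called in edgeR, and NT3 against GFP gave 0.56 (SE 0.186, exact permutation p = 0.0130). These comparisons share the GFP rats. Without rats 57 and 11 the log2 fold changes were -0.58 and 0.58, both called.

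Of 37 rows of intracellular effectors, 1 was called with GFP and 4 with NT3 against naïve rats, and 0 with NT3 against GFP. *Tiam1*, an activator of the GTPase Rac, was lower with GFP (log2 fold change -0.21, SE 0.073, exact permutation p = 0.0195), and all 6 lay below the naïve median. *Arhgef11*, an exchange factor that binds class B plexins, was higher with NT3 (0.23, SE 0.077, exact permutation p = 0.0195), and all 6 lay above the naïve median. Without rats 57 and 11 *Arhgef11* was at 0.19 and still called. *Limk1*, a kinase that acts on the actin-severing protein cofilin, was higher with NT3 in edgeR (0.37, SE 0.170, exact permutation p = 0.106), but at 0.20 and no longer called without rats 57 and 11. *Rras2*, a Ras-family GTPase, and *Rnd3*, another small GTPase, were lower with NT3 (-0.25, SE 0.098, exact permutation p = 0.0346, and -0.17, SE 0.076, exact permutation p = 0.0476). Without rats 57 and 11 *Rnd3* was at -0.15 and not called.

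**Figure D5:**
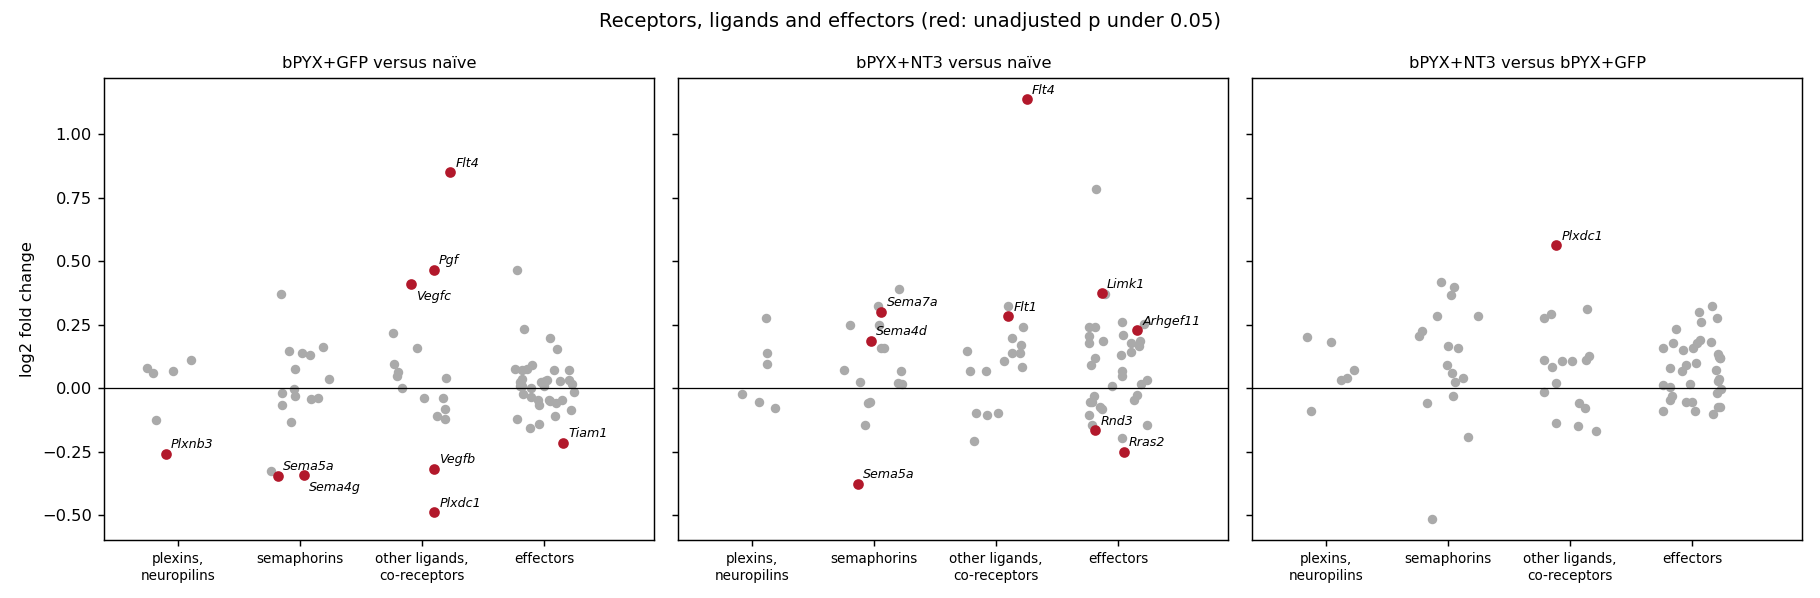
Log2 fold changes (vertical axis) of the 6 members and 71 rows of ligands, co-receptors and effectors in the 3 comparisons (panels), 1 point per row, spread sideways for legibility. Red points, named, have an unadjusted edgeR p under 0.05, grey points do not, and 1 member, *Plxnb3*, is among the red points.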

How the data were processed

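Poly(A) RNA of 18 rats was sequenced as 50 bp paired-end reads. According to the methods and the submitters' processing notes, alignment by the authors used TopHat2 and the Rnor_6.0 genome, after which they removed duplicates with Picard and counted read-pairs per RefSeq identifier with HTSeq. The deposited values are raw counts per identifier that the authors did not normalize. Reads outside genes entered neither library sizes nor tests. Of 15075 identifiers, 14193 matched a symbol in the RefSeq table (GRCr8).

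The count table of all rats links each rat number to a sample number of the labels, which gave the groups. The counts deposited per rat were identical in 18 of 18 rats, but for 17 of them the title names another group. That grouping was an alternative. The library preparation keeps strand, and the counter's strand setting is not given in the sources used here. A library held 12808006 ± 1788000 read-pairs on genes (SD, 18 rats). The intervals of fold changes are for the difference between groups, with the variation between rats taken into account, and do not give the spread of single rats.

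Each pair of groups was fitted in edgeR 4.0.16 (R 4.3.3) with TMM, estimateDisp, glmQLFit and glmQLFTest, over identifiers that exceeded 10 reads in 6 or more of the 12 rats (11601, 11693 and 11623 tested). A gene was called at an unadjusted p under 0.05, the study's threshold, with Benjamini-Hochberg adjustment over all genes beside it. For single genes, log2 CPM (prior count 2) was compared with exact permutation tests, two-sided, and correlations by 100000 resamples. Alternatives were the likelihood ratio test, DESeq2 1.42.0, its size factors or library size alone, no filter or more than 50 reads, 1 fit over the 3 groups, robust estimation, the titles' grouping, a prior count of 0.5 and leaving out each rat. Chosen after seeing the data were a replicate block, a covariate for the no-feature share and leaving out rats 57 and 11. The fits were also run on simulated data with changes larger than those of any member. Recovery of changes of the members' size was not tested. Python 3.11.15, pandas 2.3.3, numpy 2.4.6 and matplotlib 3.10.9 were used for sequences and plots.

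The members and gene lists were chosen with earlier results of these data known. The genes named are all members, the genes of each list with an unadjusted p under 0.05 in any comparison (at most 6 per list) and the 3 genes most correlated with each member. Small RNAs were not analysed here.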

Additional observations from a re-analysis of the deposited data

Results flagged for a closer look

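Of 63 groups of 6 rats examined among the members and the named ligands and effectors, 5 held a rat far from the others by Dixon's criterion, where chance gives about 1 in 20. In *Plxnb2*, rat 57 (bPYX+GFP) had 751 normalized counts, and the other bPYX+GFP rats had 326 to 468. Rat 57 was also the highest bPYX+GFP rat for *Sema4g* with 252 and for *Flt4* with 27.7 normalized counts. Rat 11 (bPYX+NT3) had 3218 normalized counts of *Sema5a*, the lowest of its group. Rat 17 (bPYX+NT3) had 759 normalized counts of *Vegfb*, the highest of its group.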

How the results depend on the processing

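No member or listed gene passed an adjusted p under 0.05 in any alternative over all rats. Members called between bPYX+GFP and naïve rats numbered 1, beside 3.25% of all genes. They numbered 2 with DESeq2 (3.22% of all genes), with a covariate for the no-feature share (7.31%) and without rats 57 and 11 (5.17%). They numbered 0 with library size alone, with 1 fit over the 3 groups and with the titles' grouping. Leaving out each rat in turn gave 0 to 2. Between bPYX+NT3 and naïve rats the count of 0 became 1 with the replicate block (*Plxnb2*, beside 25.3% of all genes). It also became 1 without rats 57 and 11 (*Nrp2*, beside 3.16% of all genes) and was 0 to 1 when each rat was left out. Between the injured groups the count of 0 became 1 with DESeq2 (1.82% of all genes), with the covariate (1.94%) and without rats 57 and 11 (12.6%). It was 0 to 1 when each rat was left out. The 8 listed genes called between bPYX+GFP and naïve rats became 0 with the titles' grouping and 13 without rats 57 and 11, 18.3% beside 5.17% of all genes (5 to 13 leaving out each rat, the highest without rat 57). The 9 called between bPYX+NT3 and naïve rats became 2 with the titles' grouping and 29 with the replicate block, 40.8% of the listed rows beside 25.3% of all genes (6 to 12 leaving out each rat). The 1 called between the injured groups became 2 with the likelihood ratio test, DESeq2, 1 fit over the 3 groups, the titles' grouping and the covariate, 0 with the filter of more than 50 reads and 19 without rats 57 and 11, 27.1% beside 12.6% of all genes (1 to 24 leaving out each rat, the highest without rat 57). The cause was not tested.

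With the titles' grouping, which moves 17 of 18 rats to other groups, log2 fold changes turned for *Plxna2* (-0.0061, 0.0025 and 0.0095 in the order bPYX+GFP against naïve, bPYX+NT3 against naïve, bPYX+NT3 against bPYX+GFP), *Plxna3* (-0.069, -0.14 and -0.073), *Plxnb2* (-0.20, -0.32 and -0.11) and *Nrp1* (0.11, 0.059 and -0.048). They also turned for *Plxnb3* between bPYX+NT3 and naïve rats (0.025) and for *Nrp2* between bPYX+NT3 and both naïve (-0.053) and bPYX+GFP rats (-0.077). Elsewhere, *Plxnb2* turned between bPYX+GFP and naïve rats without rats 57 and 11 (-0.11), *Plxna2* between bPYX+NT3 and naïve rats with library size alone (0.0074) and *Plxna3* between the injured groups with the covariate (-0.070). Leaving out each rat, log2 fold changes ran from -0.11 to 0.17 for *Plxnb2* between bPYX+GFP and naïve rats and, between the injured groups, from -0.039 to 0.12 for *Plxna3* and from -0.0020 to 0.081 for *Nrp2*. The differences of mean log2 CPM ran from -0.082 to 0.16 for *Plxnb2* and from -0.029 to 0.11 for *Plxna3* in these comparisons and from -0.039 to 0.00058 for *Plxna2* between bPYX+NT3 and naïve rats.

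The labels do not pair the rats by replicate number. Deviations of same-numbered rats correlated at -0.37 to 0.32, -0.30 to 0.53 and -0.40 to 0.50 in the 3 comparisons. Between bPYX+NT3 and naïve rats the values were 0.33, 0.53, -0.30, 0.49, 0.29 and 0.40. Rats with different numbers were not compared, so these values cannot show whether same-numbered rats share an effect. With library size alone, calls over all genes between the injured groups were 167 higher and 41 lower, instead of 125 and 76. At 6 rats a group, the 95% intervals of the log2 fold changes reached 0.66 for *Plxnb2* and -0.19 for *Plxna2*.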
